A study of Mus musculus with 9 samples.

Results

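Cannabidiol, a compound of the cannabis plant that does not intoxicate, was compared with its solvent in the hippocampus of mice that carried a tied spinal nerve. The comparison used 6 of the 9 libraries of the series, chosen by their group labels alone, with 3 libraries in each group. The SNL group had spinal nerve ligation and then solvent. The CBD group had the same ligation and then cannabidiol at 5 mg/kg, injected into the peritoneum over 15 days. The 3 sham libraries, from mice whose L5 nerve was found but left untied and which then had solvent, entered the fit for its estimate of the spread and are quoted beside some values. All mice were C57BL/6J, an inbred laboratory strain, and the sources used here give no age, sex, kind of solvent or day of tissue collection. Of the 57010 genes in the deposited table, 17967 held enough counts to be tested. Whether each library is a separate animal is not stated in the labels, so every p-value below measures the spread between these samples alone, and that spread may be technical.

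Tying a spinal nerve is a surgical model of neuropathic pain, the lasting pain that follows damage to nerves. The hippocampus, a cortical structure of granule cells, pyramidal neurons and interneurons, serves memory and mood and receives input about pain. Cannabidiol binds the classical cannabinoid receptors weakly. Its proposed targets include transient receptor potential channels, the serotonin 1A receptor, Gpr55, nuclear PPAR gamma, the transporters that clear adenosine, and the fatty acid binding proteins that carry anandamide to its degrading enzyme.

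Library totals ran from 16972620 to 20470546 expected counts. Levels are given as CPM, the usual scale of counts relative to the library total, after scaling by trimmed mean of M-values (TMM). Markers of the hippocampus were present in every library: the summed level of the dentate granule cell list ran from 421 to 906 CPM, that of the CA1 list from 523 to 1236 CPM and that of the CA3 list from 828 to 1135 CPM. Several of the 6 libraries stood apart. Pmch, a hypothalamic peptide precursor, was at 200.4 CPM in SNL 1, 43.9 CPM in SNL 2 and 145.7 CPM in CBD 1, while no other library exceeded 0.797 CPM. CBD 2 and CBD 3 were the most alike pair within any group, with a chi-square of 6.15 per gene against 16.8 to 40.8 for the other pairs, and so did not agree within sampling noise. CBD 1 lay nearer to the SNL libraries than CBD 2 and CBD 3 did for many of the gene groups below. The main lists are therefore also given without CBD 1, and without SNL 1, SNL 2 and CBD 1 together.

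No gene passed an adjusted p under 0.05 in edgeR's quasi-likelihood test, which is 0% of the genes tested, and the smallest Benjamini-Hochberg adjusted p was 0.306. At an unadjusted p under 0.05, 1168 genes (6.50%) were higher in CBD than in SNL and 1294 genes (7.20%) were lower. The groups did not overlap, with all 3 CBD libraries above all 3 SNL libraries, for 1650 genes (9.18%), and the reverse held for 1808 genes (10.1%). The DESeq2 Wald test, run as an alternative on the same counts, called 89 genes higher (0.495%) and 67 lower (0.373%) at an adjusted p under 0.05. These shares are the background against which the gene groups are read. Leaving out CBD 1 gave 9.05% higher and 10.9% lower at an unadjusted p under 0.05. Leaving out SNL 1, SNL 2 and CBD 1 gave 4.36% and 6.59%. A correction by offsets for the GC content and length of transcripts, fitted in each library, gave 2.74% and 4.38%.

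**Figure D1:**
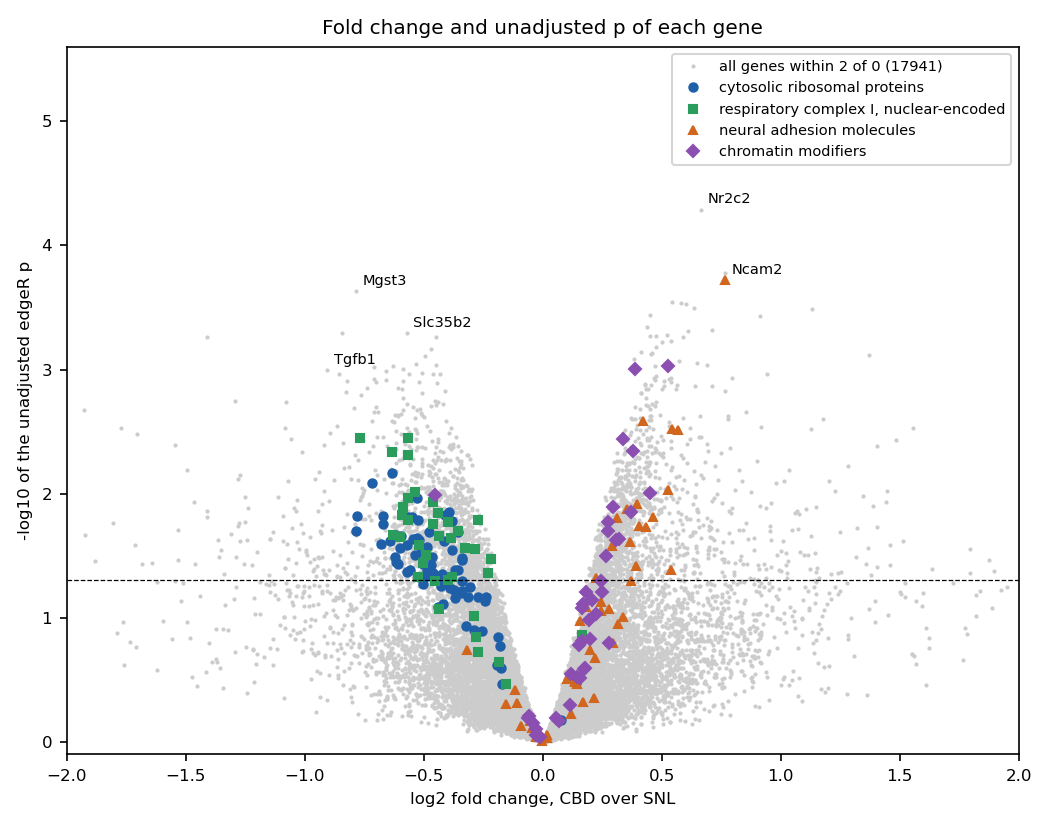
Each grey point is a gene, placed by its log2 fold change (CBD over SNL) and by -log10 of its edgeR significance value before adjustment, with 26 genes beyond 2 in either direction not drawn and a dashed line at the 0.05 level. Cytosolic ribosomal proteins (79 genes) and complex I subunits (37 genes) lie almost wholly to the left of 0, while neural adhesion molecules (46 genes) and chromatin modifiers (40 genes) lie mostly to the right.

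Genes with the smallest p among those higher in CBD are given here singly, with no class tested. Nr2c2 (ENSMUSG00000005893), the orphan nuclear receptor TR4, stood at 56.8, 67.2 and 56.3 CPM in SNL 1 to 3 and at 92.0, 91.9 and 102 CPM in CBD 1 to 3. The groups did not overlap, and the sham libraries, at 84.3 to 89.5 CPM, lay between them. The log2 fold change of Nr2c2 was 0.67 ± 0.10 (SE), with an edgeR adjusted p of 0.306 and a DESeq2 adjusted p of 0.000103. Ncam2 (ENSMUSG00000022762), a neural adhesion molecule of the immunoglobulin family, stood at 31.98, 34.0 and 41.5 CPM in SNL and at 59.2, 64.1 and 59.7 CPM in CBD. Its sham values of 33.9 to 45.0 CPM overlapped with SNL, and its log2 fold change was 0.77 ± 0.14. Xkr4, of a family of membrane proteins that includes lipid scramblases, was at 11.4, 14.2 and 14.6 CPM in SNL and at 21.9, 22.2 and 24.4 CPM in CBD, a log2 difference of 0.76 ± 0.13.

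Sp4, a zinc finger factor of the Sp family that is abundant in brain, was at 15.4 to 17.4 CPM in SNL and 23.7 to 26.6 CPM in CBD. Aff2, a nuclear protein whose loss in humans causes an intellectual disability linked to the X chromosome, was at 4.20 to 5.52 CPM in SNL and 8.75 to 12.3 CPM in CBD, a log2 fold change of 1.13 ± 0.21. Klf12, a repressor of the Krüppel-like family, had a log2 fold change of 0.61 ± 0.12. All of these CBD libraries lay above all of the SNL libraries.

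Map2, the microtubule-associated protein of dendrites, was among the higher genes of smallest DESeq2 adjusted p. It was at 793, 661 and 842 CPM in SNL and at 1066, 1170 and 1218 CPM in CBD, a log2 fold change of 0.59 ± 0.12. Nexmif, which promotes the outgrowth of neurites, had a log2 fold change of 0.71 ± 0.14, and Faxc, the homologue of a fly gene needed for axon connections, of 0.60 ± 0.11. Rev3l, the catalytic subunit of a DNA polymerase that copies across damage, had 0.54 ± 0.10, Klhl11, an adaptor for protein ubiquitination, 0.91 ± 0.18, and Osbpl8, a lipid transfer protein of the endoplasmic reticulum, 0.44 ± 0.09. For every gene named in these paragraphs the CBD and SNL libraries did not overlap, and leaving out any single library kept the sign. After correction for GC content and transcript length, the log2 fold change went to 0.16 for Osbpl8, 0.26 for Rev3l and 0.40 for Nexmif. It went to 0.39 for Sp4 and 0.49 for Ncam2, and each of these values was smaller by over 1.5 times. It was 0.46 for Nr2c2, 0.57 for Xkr4, 0.44 for Klf12, 0.44 for Map2, 0.54 for Faxc, 1.09 for Aff2 and 0.95 for Klhl11.

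Among the lower genes of smallest p, again with no class tested, was Mgst3 (ENSMUSG00000026688), a microsomal glutathione transferase. It stood at 49.7, 54.2 and 58.3 CPM in SNL and at 36.8, 28.2 and 29.4 CPM in CBD. The groups did not overlap, and the sham values of 32.5 to 43.9 CPM reached below SNL. The log2 fold change was -0.78 ± 0.14, with an edgeR adjusted p of 0.306 and a DESeq2 adjusted p of 0.0039. Slc35b2, which carries the sulfate donor into the Golgi, was at 24.98, 28.1 and 23.8 CPM in SNL and at 17.9, 17.9 and 16.04 CPM in CBD. Bckdha, a subunit of the enzyme complex that commits branched-chain amino acids to breakdown, was at 36.3 to 39.4 CPM in SNL and 24.1 to 30.0 CPM in CBD, a log2 fold change of -0.49 ± 0.11. Its sham values, at 39.8 to 42.2 CPM, lay above SNL.

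Rab4a, a small GTPase of recycling endosomes, was at 32.5 to 34.9 CPM in SNL and 23.6 to 26.5 CPM in CBD. Yif1b, which carries the serotonin 1A receptor towards dendrites, was at 22.2 to 22.9 CPM in SNL and 12.97 to 17.6 CPM in CBD, a log2 fold change of -0.59 ± 0.13. Pacsin3, a membrane-bending protein of endocytosis, had -0.63 ± 0.14, and Rhog, a small GTPase of the cell skeleton, had -0.71 ± 0.16. Josd2, a deubiquitinating enzyme, had -0.45 ± 0.09 and Ubxn1, an adaptor of the p97 ATPase, had -0.47 ± 0.10. Thy1, an abundant glycoprotein on the surface of neurons, was at 658, 704 and 647 CPM in SNL and at 556, 499 and 485 CPM in CBD, a log2 fold change of -0.38 ± 0.10. Qdpr, which recycles tetrahydrobiopterin, the cofactor for making dopamine and serotonin, was at 314 to 385 CPM in SNL and 213 to 253 CPM in CBD. Prr18 and Spacdr had -0.66 ± 0.15 and -0.53 ± 0.12. None of these groups overlapped. With the offsets, the log2 fold change went to -0.15 for Josd2 and Thy1, -0.23 for Rab4a, -0.24 for Yif1b, -0.25 for Bckdha, -0.33 for Slc35b2, -0.37 for Pacsin3, -0.42 for Rhog and -0.39 for Qdpr, each smaller by over 1.5 times. Mgst3 had -0.60 and Ubxn1 -0.43.

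Tgfb1, the cytokine transforming growth factor beta 1, was the only secreted immune factor among the 12 lower genes of smallest p. It stood at 5.25, 6.63 and 6.16 CPM in SNL and at 3.52, 3.61 and 2.49 CPM in CBD, with sham at 4.28 to 4.79 CPM between them. The log2 fold change was -0.90 ± 0.20, -0.82 with the offsets and -1.01 without SNL 1, SNL 2 and CBD 1. The related Tgfb3 was at 14.3 to 19.6 CPM in SNL and 12.4 to 14.3 CPM in CBD.

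**Figure D2:**
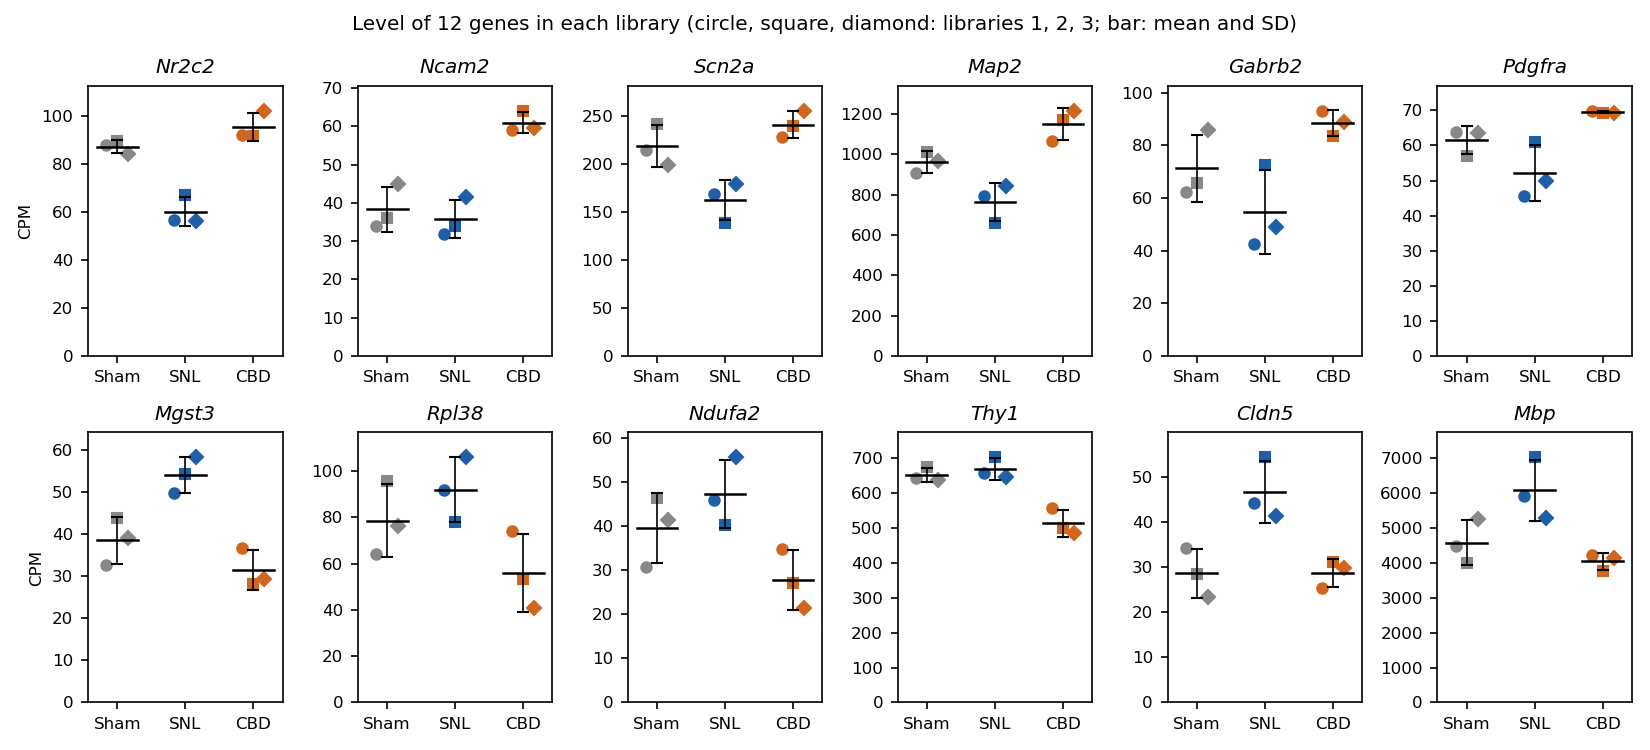
The CPM of 12 genes in each library is plotted by group, with library 1 as a circle, library 2 as a square and library 3 as a diamond, and with the group mean and SD (n = 3) in black. In each panel the CBD libraries lie wholly above the SNL libraries (top row) or wholly below them (bottom row), as for Nr2c2 at 91.9 to 102 CPM against 56.3 to 67.2 CPM.

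Transcripts for making proteins were lower in CBD. Of the 79 cytosolic ribosomal protein genes, which encode the fixed parts of the ribosome, 77 had lower levels, and the median log2 fold change was -0.46 where that over all genes was 0.00. At an unadjusted p under 0.05, 51 of them were lower and 0 were higher, and for 19 the groups did not overlap. The 2 that were higher, named after their values were seen, were Rpl5 at 0.08 ± 0.18 and Rpl10 at 0.14 ± 0.14. The summed level of the 79 genes was 16114, 12852 and 16087 CPM in SNL 1 to 3. It was 13333, 10756 and 9870 CPM in CBD 1 to 3, so that CBD 1 lay above SNL 2. Sham 1 to 3 summed to 10951, 15475 and 12806 CPM, which overlapped with both groups. Rpl38, a protein of the large subunit, was at 91.9, 77.8 and 106 CPM in SNL and at 74.1, 53.2 and 40.6 CPM in CBD, a log2 fold change of -0.72 ± 0.22. Rpl10a had -0.63 ± 0.19, Rpl8 -0.53 ± 0.17 and Rplp0 -0.40 ± 0.13. With the offsets Rpl38 had -0.30, Rpl8 -0.20 and Rplp0 -0.19. Many ribosomal protein genes have processed copies in the genome, so the share of reads that each was given is uncertain.

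The ribosomes of mitochondria showed a smaller difference. Of their 77 protein genes, 70 were lower in CBD, with a median of -0.23, and 18 had an unadjusted p under 0.05, all of them lower. Mrpl12, a protein of the large subunit that also binds the mitochondrial RNA polymerase, was at 49.8, 44.0 and 40.0 CPM in SNL and at 36.4, 28.5 and 29.4 CPM in CBD. Its log2 fold change was -0.51 ± 0.13. Proteasome subunits, which degrade proteins, were lower for 26 of 32 genes, with a median of -0.16, and 4 had an unadjusted p under 0.05. Psmb5, a catalytic subunit, was at 81.1 to 104 CPM in SNL and 62.9 to 74.3 CPM in CBD. With the offsets the medians of these lists were -0.13 and -0.05, and the fold changes of Mrpl12 and Psmb5 were -0.23 and -0.11.

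Nuclear genes of the respiratory chain were lower in CBD across all of its complexes. For complex I, which passes electrons from NADH, 36 of 37 genes were lower with a median of -0.44, and 29 had an unadjusted p under 0.05. Ndufs1 alone was higher, at 0.17 ± 0.10. For complexes II and III the count was 12 of 14 lower with 7 at that p, for complex IV, cytochrome c oxidase, 12 of 12 with 11, and for ATP synthase 16 of 17 with 11. Their medians were -0.29, -0.44 and -0.38. The summed level of the complex I list was 3028, 2673 and 3312 CPM in SNL and 2564, 2313 and 2162 CPM in CBD. In sham 1 to 3 it was 2112, 2794 and 2613 CPM. Ndufa2, an accessory subunit of complex I, was at 45.9, 40.4 and 55.7 CPM in SNL and at 34.9, 27.1 and 21.5 CPM in CBD, a log2 fold change of -0.77 ± 0.20. Cox8a, a small subunit of complex IV, was at 247, 246 and 291 CPM in SNL and at 221, 158 and 142 CPM in CBD. Atp5d, the delta subunit of the ATP synthase rotor, was at 148, 157 and 158 CPM in SNL and at 125, 83.4 and 76.0 CPM in CBD, a log2 fold change of -0.70 ± 0.17. In each of these genes CBD 1 was the CBD library nearest to SNL. With the offsets Ndufa2 had -0.49, Cox8a -0.19 and Atp5d -0.40.

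The subunits encoded by mitochondrial DNA did not share this direction. Of 13 such genes 11 were higher in CBD, with a median of 0.17, and 0 had an unadjusted p under 0.05. Without CBD 1, 12 of 13 were higher, with a median of 0.35 and 4 at that p. Their summed level was 53890, 41550 and 48325 CPM in SNL and 37748, 57264 and 60152 CPM in CBD. CBD 1 had the lowest and CBD 2 and CBD 3 the highest sum of the 6, so the groups overlapped. mt-Co1, the core subunit of cytochrome c oxidase, was at 24281, 18939 and 22373 CPM in SNL and at 16985, 23891 and 24738 CPM in CBD. mt-Atp8 was at 364, 408 and 586 CPM in SNL and at 347, 1225 and 818 CPM in CBD, and its reading frame overlaps that of mt-Atp6, so their reads may be shared.

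Without CBD 1, 64 of the 79 cytosolic ribosomal protein genes and 29 of the 37 complex I genes were lower at an unadjusted p under 0.05, with medians of -0.62 and -0.58. Without SNL 1, SNL 2 and CBD 1 the medians were both -0.73, with SNL then represented by SNL 3 alone. After correction for GC content and transcript length, the counts were 23 of 79 and 13 of 37 and the medians -0.23 and -0.24.

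**Figure D3:**
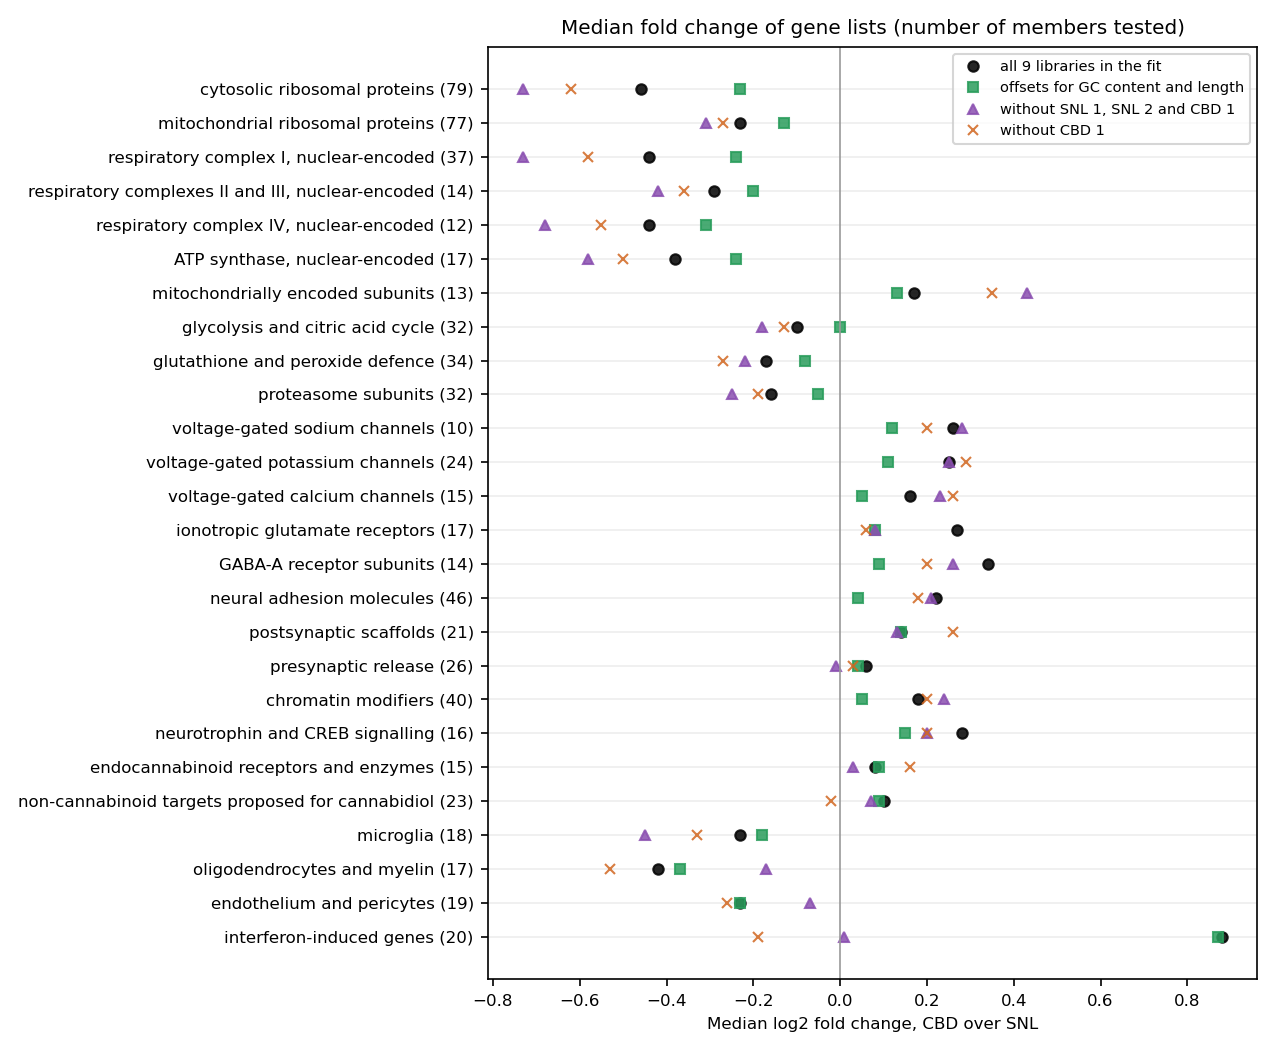
Each row is a gene list with its number of tested members, and the points give its median log2 fold change (CBD over SNL) in the fit of all 9 libraries, with offsets for GC content and length, without SNL 1, SNL 2 and CBD 1, and without CBD 1. The medians of the ribosomal and respiratory lists stay below 0 in all 4 fits, and that of the interferon list goes from 0.88 to -0.19 without CBD 1.

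Other enzymes of metabolism had smaller medians as groups. Of 32 genes of glycolysis and the citric acid cycle 23 were lower, with a median of -0.10 and 4 at an unadjusted p under 0.05. With the offsets 15 were higher and 17 lower, with a median of 0.00 and 2 lower at that p. Gapdh, a glycolytic enzyme often used as a reference gene, was at 1358, 1320 and 1519 CPM in SNL and at 1250, 1014 and 937 CPM in CBD, with no overlap. Of 34 genes of glutathione and peroxide defence 27 were lower, with a median of -0.17, and 9 were lower and 1 higher at that p. Prdx5, a mitochondrial peroxidase, had a log2 fold change of -0.41 ± 0.12, and Gpx4, which reduces lipid peroxides, had -0.39 ± 0.13. The gene that was higher, Slc7a11, the cystine carrier that feeds glutathione synthesis, had 0.32 ± 0.13. With the offsets the median of that list was -0.08, with 0 higher and 4 lower at that p, and Prdx5 had -0.17 and Gpx4 -0.02. Of 21 genes for the breakdown of branched-chain amino acids 9 were higher and 12 lower, with a median of -0.07. At that p 3 (14.3%) were higher and 3 (14.3%) lower. Bckdha and Bcat2 were among the lower genes. Dbt, another subunit of the complex that Bckdha belongs to, Acadsb and Mmut were the higher ones. Dbt was at 16.5 to 18.4 CPM in SNL and 21.3 to 23.2 CPM in CBD. With the offsets 0 genes of that list were higher at that p and 2 were lower.

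Promoter sequences are shown for 4 genes of the lower groups and 4 of those higher, picked after their values were seen, so that members that differed in the same direction can be read side by side. They are from RefSeq, on build GRCm38.p6, from 80 bases before to 20 bases after the annotated start of the entry listed first for the gene, while the counts were made on GRCm39. On the plus strand lie Rpl38 at chr11:114668500-114668599, Rplp0 at chr5:115559387-115559486, Ndufs7 at chr10:80249369-80249468, Nr2c2 at chr6:92092353-92092452, Ncam2 at chr16:81200617-81200716 and Map2 at chr1:66175249-66175348. On the minus strand lie Cox8a at chr19:7217597-7217696 and Sp4 at chr12:118301421-118301520. Capitals mark CCGGAAG, the core read by ETS family factors, GGGCGG, the GC box read by Sp family factors, CCAAT, the box read by NF-Y, and TATAAA, the motif of the TATA-binding protein, each on either strand, and CTTTC or CTTCC on the forward strand within 25 bases of the start, as in the pyrimidine tract that begins many ribosomal protein messages. CTTCC also forms part of CCGGAAG read on the minus strand.
Rpl38: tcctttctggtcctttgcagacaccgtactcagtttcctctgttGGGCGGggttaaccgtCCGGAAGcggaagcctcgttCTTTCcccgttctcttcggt
Rplp0: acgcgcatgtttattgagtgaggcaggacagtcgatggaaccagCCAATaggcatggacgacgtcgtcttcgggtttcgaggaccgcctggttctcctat
Ndufs7: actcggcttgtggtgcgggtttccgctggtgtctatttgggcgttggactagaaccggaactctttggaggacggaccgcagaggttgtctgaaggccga
Cox8a: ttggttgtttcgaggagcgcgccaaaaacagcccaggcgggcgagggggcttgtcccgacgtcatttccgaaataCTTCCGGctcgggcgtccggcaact
Nr2c2: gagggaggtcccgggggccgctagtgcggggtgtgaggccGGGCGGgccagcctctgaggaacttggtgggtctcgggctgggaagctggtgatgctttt
Ncam2: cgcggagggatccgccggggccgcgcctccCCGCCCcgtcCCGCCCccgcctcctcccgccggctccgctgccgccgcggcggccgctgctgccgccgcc
Map2: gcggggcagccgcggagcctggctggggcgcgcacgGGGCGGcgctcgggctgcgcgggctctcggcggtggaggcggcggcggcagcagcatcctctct
Sp4: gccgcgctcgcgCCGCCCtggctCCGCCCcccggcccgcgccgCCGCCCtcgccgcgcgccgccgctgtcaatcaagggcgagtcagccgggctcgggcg

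The 4 promoters shown from the lower groups did not share a motif in this window. Rpl38 held the ETS core, the GC box and a tract at the start. Rplp0 held the NF-Y box alone, and Ndufs7 held none of the motifs. In Cox8a the same letters gave both the ETS core on the minus strand and the tract. The 4 from the higher set each held at least 1 GC box, which Rpl38 held too. Over the 12548 tested genes with a promoter entry, within 250 bases before and 50 bases after the start, 15.9% held the ETS core and 61.2% the GC box. The box read by NF-Y stood in 38.4%, the TATA-binding motif in 7.43% and the tract near the start in 17.2%. These entries cover 69.9% of the tested genes and 73.4% of the cytosolic ribosomal protein genes, and genes without an entry may differ. Of the cytosolic ribosomal protein genes with an entry, 39.7% held the ETS core, 60.3% the GC box and 48.3% the tract. The NF-Y box stood in 31.0% of them and the TATA-binding motif in 8.62%. For complex I these shares were, in the same order, 12.1%, 45.5%, 27.3%, 30.3% and 12.1%. The GC box stood in 66.6% of the genes higher at an unadjusted p under 0.05 that had an entry. It stood in 63.4% of those lower at that p and in 35.3% of the neural adhesion molecules with an entry. Differences between shares were not tested. A match is a description of the letters and not a bound site.

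Genes of neuronal excitability and contact were mostly higher in CBD. Of 46 neural adhesion molecules, which join neurons to each other and line up synapses, 36 were higher, with a median log2 fold change of 0.22. At an unadjusted p under 0.05, 16 were higher and 0 lower, and for 20 the groups did not overlap. Chl1, an adhesion molecule of growing axons, was at 133, 95.9 and 140 CPM in SNL and at 165, 181 and 191 CPM in CBD, a log2 fold change of 0.54 ± 0.14. Nlgn1, the postsynaptic neuroligin of excitatory synapses, was at 39.0, 28.8 and 39.2 CPM in SNL and at 48.8, 52.0 and 58.0 CPM in CBD. Nrxn3, a presynaptic partner of neuroligins, was also higher at that p, with 0.35 ± 0.12. Adgrl3, a latrophilin that bridges the synaptic cleft, had 0.42 ± 0.11, and 3 teneurins and both Flrt2 and Flrt3, which bind latrophilins, were higher at that p as well.

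In the list of voltage-gated sodium channels, which carry the action potential, 7 of 10 genes were higher, with a median of 0.26. The list also held the leak channel Nalcn, which was among the 3 higher genes with an unadjusted p under 0.05. Scn2a, the Nav1.2 channel of excitatory neurons, was at 168, 139 and 179 CPM in SNL and at 228, 239 and 255 CPM in CBD, with sham at 199 to 242 CPM. Its log2 fold change was 0.57 ± 0.12, with an edgeR adjusted p of 0.306 and a DESeq2 adjusted p of 0.011. Scn3a, the Nav1.3 channel of the developing brain, was at 44.0, 44.8 and 45.7 CPM in SNL and at 63.3, 61.7 and 76.6 CPM in CBD. Nalcn, the sodium leak channel that sets resting excitability, was at 85.1 to 101 CPM in SNL and 106 to 132 CPM in CBD. The groups did not overlap for any of these 3 channels.

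Potassium and calcium channels had the same direction. Of 24 voltage-gated potassium channels, which end the action potential, 19 were higher, with a median of 0.25 and 6 at an unadjusted p under 0.05. Kcnb2, a delayed rectifier, was at 15.9 to 18.6 CPM in SNL and 23.02 to 25.9 CPM in CBD, a log2 fold change of 0.52 ± 0.11. Kcna1, which is mutated in episodic ataxia, was at 28.1, 47.3 and 34.95 CPM in SNL and at 47.3, 56.5 and 63.0 CPM in CBD, where SNL 2 and CBD 1 met. Of 15 calcium channel genes 11 were higher, with 3 at that p. Cacna2d1, the auxiliary subunit that the pain drug gabapentin binds, was at 135, 110 and 147 CPM in SNL and at 153, 164 and 199 CPM in CBD, a log2 fold change of 0.39 ± 0.16 and of 0.11 with the offsets.

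Receptors of the main transmitters followed. Of 17 ionotropic glutamate receptor genes 12 were higher, with a median of 0.27 and 2 at an unadjusted p under 0.05. Gria2, the AMPA receptor subunit that blocks calcium entry, was at 397, 335 and 499 CPM in SNL and at 417, 654 and 761 CPM in CBD, so that CBD 1 lay within SNL. Without CBD 1 the median of this list was 0.06, with 6 genes higher and 1 lower at that p. Of 14 GABA-A receptor subunits 11 were higher, with a median of 0.34, and 3 were higher and 1 lower at that p. Without CBD 1 the median of the GABA-A list was 0.20, with 4 higher and 2 lower at that p. Gabrb2, a beta subunit, was higher at that p, at 42.4, 72.7 and 49.1 CPM in SNL and at 93.2, 83.4 and 89.0 CPM in CBD, a log2 fold change of 0.69 ± 0.19. Gabrb1, also a beta subunit, had 0.41 ± 0.14. Gabrd, the delta subunit of receptors outside synapses, was lower at -0.79 ± 0.28, and SNL 2, at 76.2 CPM, stood apart from the other SNL libraries at 33.7 and 36.8 CPM.

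Of 21 postsynaptic scaffold genes 15 were higher, with a median of 0.14, and only Dlg2, also called PSD-93, had an unadjusted p under 0.05, at 0.59 ± 0.15. It was at 178, 168 and 222 CPM in SNL and at 242, 301 and 313 CPM in CBD. Without CBD 1 there were 7 such scaffold genes. Of 26 genes of presynaptic release 14 were higher and 12 lower. Pclo, which organises the active zone, was at 175 to 206 CPM in SNL and 236 to 318 CPM in CBD, while Rab3a, the GTPase of synaptic vesicles, was at 392 to 450 CPM in SNL and 307 to 376 CPM in CBD.

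Chromatin modifiers were higher for 32 of 40 genes, with a median of 0.18, and 12 were higher and 1 lower at an unadjusted p under 0.05. Ash1l, a histone methyltransferase, was at 96.2, 115 and 103 CPM in SNL and at 135, 150 and 168 CPM in CBD, a log2 fold change of 0.53 ± 0.12. Bptf, which reads histone marks in a remodelling complex, had 0.34 ± 0.09, and Setd2, which methylates histone tails over transcribed genes, had 0.38 ± 0.10. The gene that was lower was Hdac5, a histone deacetylase, at -0.45 ± 0.14. Of 16 genes of neurotrophin and CREB signalling 13 were higher, with a median of 0.28. Ntrk2, the receptor of brain-derived neurotrophic factor, was at 504, 569 and 484 CPM in SNL and at 722, 578 and 582 CPM in CBD, a log2 fold change of 0.27 ± 0.12. Ntrk3 had 0.46 ± 0.15, while Bdnf itself, at 18.5 to 26.5 CPM in SNL and 18.6 to 34.9 CPM in CBD, had 0.31 ± 0.25.

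After correction for GC content and transcript length, 4 of 46 adhesion molecules and 4 of 40 chromatin modifiers were higher at an unadjusted p under 0.05. Their medians were 0.04 and 0.05. The sodium channel median went to 0.12 with 2 higher at that p, the potassium channel median to 0.11 with 2, and the calcium channel median to 0.05 with 0. For glutamate receptors the median was 0.08 with 0 at that p, for GABA-A subunits 0.09 with 1 higher and 1 lower, and for neurotrophin and CREB signalling 0.15 with 1 higher. Scn2a then had 0.31, Scn3a 0.30, Kcnb2 0.18, Gria2 0.18, Gabrb1 0.09, Chl1 0.25, Nlgn1 0.22, Dlg2 0.35, Ash1l 0.28 and Ntrk2 0.10. Without SNL 1, SNL 2 and CBD 1, where SNL rests on SNL 3 alone, the medians were 0.21 for adhesion molecules and 0.24 for chromatin modifiers. In that fit they were 0.28 for sodium, 0.25 for potassium and 0.23 for calcium channels. They were 0.08 for glutamate receptors, 0.26 for GABA-A subunits and 0.20 for neurotrophin and CREB signalling. Postsynaptic scaffolds had 0.13 and presynaptic release -0.01.

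These groups differ in the build of their transcripts. The median length of the longest annotated transcript was 5611 bases for the genes higher at an unadjusted p under 0.05 and 1858 bases for those lower, against 3220 bases for all genes tested. Their median GC content was 43.9% and 55.2%, against 49.3% for all. With the genes cut into 10 bins of equal size, the median log2 fold change went from -0.25 in the shortest bin to 0.20 in the longest, and from 0.20 in the bin of lowest GC content to -0.24 in that of highest. By library, the longest bin deviated from the mean of the 9 libraries by a median of -0.11, -0.03 and -0.15 in SNL 1 to 3 and of 0.04, 0.07 and 0.16 in CBD 1 to 3. The bin of highest GC content deviated by -0.02, 0.11 and 0.05 in SNL, by -0.08, -0.18 and -0.28 in CBD, and by 0.30 in sham 1. Of the 62 genes that the naming rule and the lists gave as higher at an unadjusted p under 0.05, 36 had a fold change smaller by over 1.5 times with the offsets, and 28 no longer had such a p. Of the 79 that were lower, these counts were 51 and 38, and no gene of either set changed sign. The part of transcript length and GC content in the differences was not tested beyond the fit with offsets, which also removes any effect on genes that share these features.

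**Figure D4:**
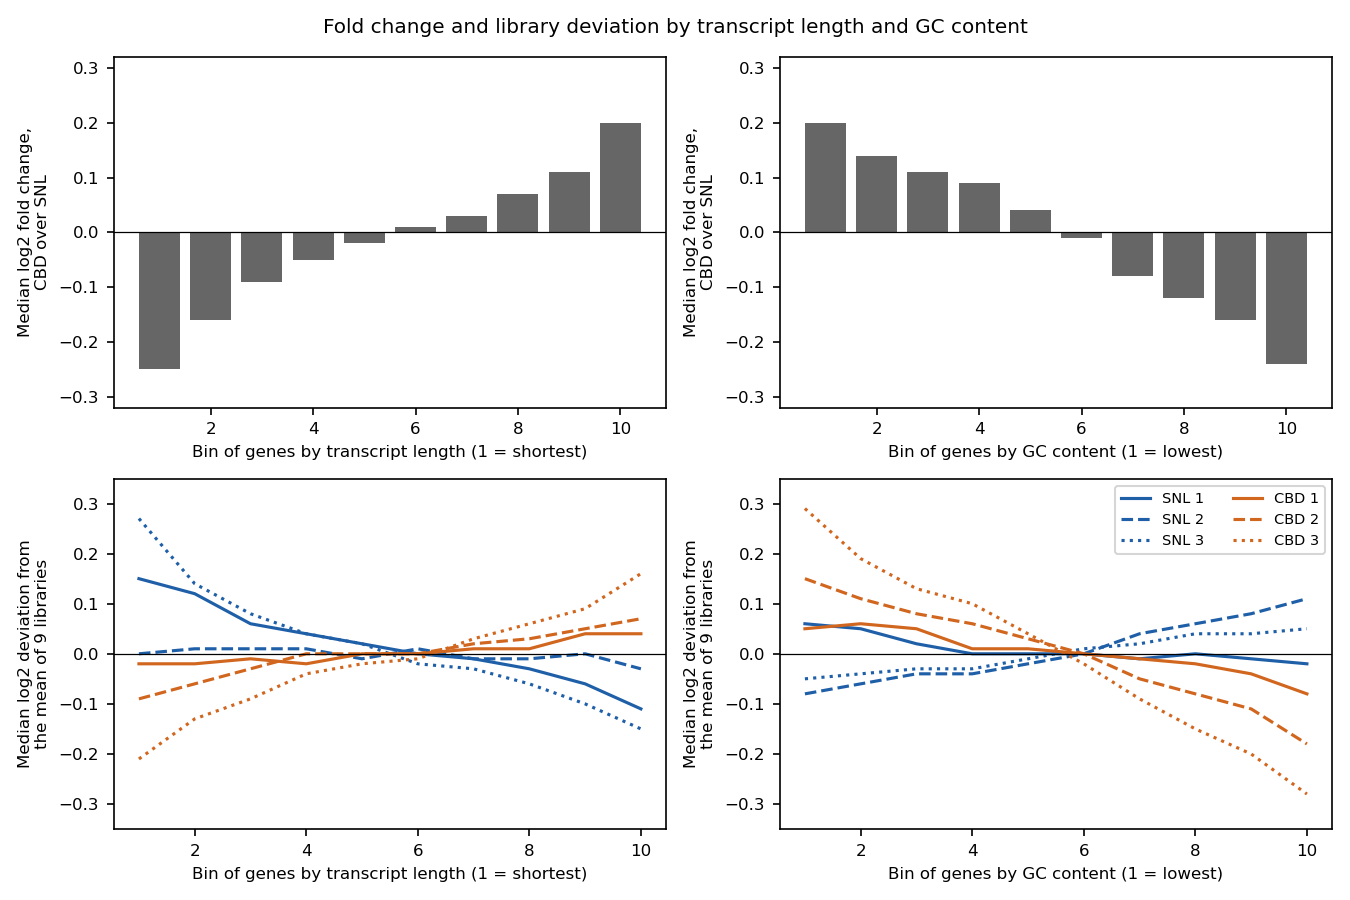
The upper bars give the median log2 fold change (CBD over SNL) in 10 equal bins of the genes by transcript length (left) and GC content (right), and the lower lines give the median log2 deviation of each of the 6 libraries compared from the mean of all 9 in the same bins. The fold change runs from -0.25 to 0.20 with length and from 0.20 to -0.24 with GC content, and at the highest GC content CBD 3 lies lowest of the 6, at -0.28.

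In the full comparison, the genes on which cannabidiol is proposed to act were at counts near the background. Of 15 tested genes of the endocannabinoid system 9 were higher, with a median of 0.08, and only Plcb1, the phospholipase that feeds the synthesis of 2-arachidonoylglycerol, had an unadjusted p under 0.05. It was at 105, 87.5 and 119 CPM in SNL and at 108, 167 and 191 CPM in CBD, so that CBD 1 lay within SNL. Cnr1, the CB1 receptor, was at 94.0, 58.3 and 126 CPM in SNL and at 123, 126 and 142 CPM in CBD, a log2 fold change of 0.49 ± 0.23. Its groups overlapped at SNL 3, and without SNL 1, SNL 2 and CBD 1 the value was 0.08. Faah, which degrades anandamide, was at 79.5, 102 and 125 CPM in SNL and at 74.2, 119 and 136 CPM in CBD, with 0.11 ± 0.25. Mgll, which degrades 2-arachidonoylglycerol, had -0.18 ± 0.18. The synthetic enzymes Dagla, Daglb and Napepld had 0.08 ± 0.29, 0.11 ± 0.14 and 0.03 ± 0.24, and the hydrolases Abhd6 and Abhd12 had -0.07 ± 0.12 and -0.05 ± 0.10. Cnr2, the CB2 receptor of immune cells, was at 0.421 CPM or less in the 6 libraries and was not tested.

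Of 23 tested targets outside the cannabinoid receptors 16 were higher, with a median of 0.10 and of -0.02 without CBD 1. At an unadjusted p under 0.05, 1 was higher and 2 were lower. Without CBD 1 these counts were 1 and 5 of 23, where 9.05% of all genes were higher and 10.9% lower. Fabp3, a fatty acid binding protein, was at 43.5, 39.4 and 49.4 CPM in SNL and at 37.1, 30.7 and 30.1 CPM in CBD, a log2 fold change of -0.44 ± 0.13 and of -0.14 with the offsets. Fabp5, its relative in brain, was at 123 to 145 CPM in SNL and 89.7 to 124 CPM in CBD, with -0.36 ± 0.16, and Fabp7, the form of glial precursors, had 0.05 ± 0.24. Slc29a1, the adenosine transporter ENT1 whose inhibition has been proposed as an action of cannabidiol, was at 42.7, 50.1 and 35.01 CPM in SNL and at 36.0, 27.5 and 28.0 CPM in CBD. The log2 fold change was -0.48 ± 0.15, and SNL 3 and CBD 1 overlapped. Oprd1, the delta opioid receptor, was at 3.91, 3.84 and 5.10 CPM in SNL and at 6.88, 6.97 and 5.44 CPM in CBD, a log2 fold change of 0.59 ± 0.21.

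The remaining targets gave no such difference. Adora1, the main adenosine receptor of the hippocampus, had 0.12 ± 0.16, Adora2a 0.26 ± 0.42, Gpr55 0.08 ± 0.41, Pparg 0.14 ± 0.43 and Trpv2, a cation channel, -0.20 ± 0.16. Vdac1, the pore of the outer mitochondrial membrane, was at 437 to 440 CPM in SNL and 378 to 414 CPM in CBD, with -0.16 ± 0.09. Trpv1, the capsaicin receptor, was at 0.217 CPM or less in every library, and Trpa1, Trpm8 and Gpr18 were at 0.516 CPM or less in the 6 libraries, so they were too low to test. Of 12 serotonin receptor genes 10 were higher, with a median of 0.30, and only Htr4, a receptor coupled to cyclic AMP, had an unadjusted p under 0.05. Htr4 was at 3.91, 4.84 and 5.79 CPM in SNL and at 5.14, 8.77 and 10.3 CPM in CBD. Htr1a was at 19.6, 14.3 and 26.2 CPM in SNL and at 23.01, 29.2 and 26.1 CPM in CBD, a log2 fold change of 0.38 ± 0.20, and 0.08 without SNL 1, SNL 2 and CBD 1.

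Markers of myelin and of blood vessels were lower in CBD. In tissue RNA, fewer cells of a type and less RNA per cell cannot be told apart. All 17 markers of oligodendrocytes, the cells that make myelin, were lower, with a median of -0.42 and 8 at an unadjusted p under 0.05. Mbp, myelin basic protein, was at 5909, 7036 and 5295 CPM in SNL and at 4215, 3778 and 4146 CPM in CBD, with sham at 3986 to 5263 CPM. The fold change was -0.59 ± 0.14 on the log2 scale and -0.61 with the offsets. Mobp, another myelin protein, had -0.54 ± 0.16. The summed level of the list was 15097, 17450 and 12227 CPM in SNL and 11470, 9783 and 11149 CPM in CBD. SNL 1 and SNL 2 had the highest sums and also held Pmch. CBD 1, which held Pmch too, was at 11470 CPM, below SNL 3 at 12227 CPM, where Pmch was at 0.797 CPM. Without SNL 1, SNL 2 and CBD 1 the median was -0.17, with SNL then represented by SNL 3 alone. The part of tissue from beside the hippocampus in this result was not tested.

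All 19 markers of endothelium and pericytes were lower too, with a median of -0.23 and 7 at an unadjusted p under 0.05. Cldn5, the claudin that seals the blood-brain barrier, was at 44.2, 54.5 and 41.5 CPM in SNL and at 25.3, 31.1 and 29.8 CPM in CBD, with sham at 23.4 to 34.2 CPM. On the log2 scale the difference was -0.70 ± 0.16. Egfl7, which endothelial cells secrete, was at 28.3 to 31.1 CPM in SNL and 18.6 to 22.9 CPM in CBD, and Tie1, an endothelial receptor, had -0.62 ± 0.17. The summed level was 966, 1118 and 868 CPM in SNL and 832, 827 and 838 CPM in CBD. Without SNL 1, SNL 2 and CBD 1 the median of the list was -0.07 with 9 genes higher and 10 lower, with Cldn5 at -0.45 and Egfl7 at -0.58. With the offsets the median was -0.23 with 5 genes lower at that p, while Cldn5 went to -0.36 and Egfl7 to -0.26.

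Other glia were mixed. Of 11 markers of oligodendrocyte precursors 8 were lower. Pdgfra, the growth factor receptor that defines these precursors, was higher, at 45.5, 60.9 and 49.9 CPM in SNL and 70.0, 69.2 and 69.4 CPM in CBD, a log2 fold change of 0.42 ± 0.12. Bcas1, of newly made myelinating cells, was lower at -0.56 ± 0.16. Of 15 astrocyte markers 7 were higher and 8 lower. Slc1a3 and Slc1a2, the glutamate carriers GLAST and GLT-1, had 0.37 ± 0.14 and 0.42 ± 0.17, whereas S100b had -0.53 ± 0.24. For Slc1a2 and S100b, CBD 1 lay within SNL. With the offsets Slc1a3 had 0.26, Slc1a2 0.16 and S100b -0.45, and 0 of the 15 markers had an unadjusted p under 0.05. Gfap, the filament protein of reactive astrocytes, was at 302, 413 and 381 CPM in SNL and at 340, 358 and 323 CPM in CBD, with -0.10 ± 0.15.

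Of 18 microglial markers 16 were lower, with a median of -0.23 and 4 at an unadjusted p under 0.05. C1qb, a chain of the first complement component, was at 35.4, 48.3 and 44.0 CPM in SNL and at 35.7, 25.5 and 19.8 CPM in CBD, so that CBD 1 overlapped with SNL. Trem2, a lipid receptor of microglia, was at 12.1 to 15.5 CPM in SNL and 8.98 to 11.3 CPM in CBD, a log2 fold change of -0.41 ± 0.17. The higher pair was P2ry12 and P2ry13, the nucleotide receptors of resting microglia, at 0.17 ± 0.15 and 0.15 ± 0.20. Without CBD 1 the count at that p was 9 of 18, and with the offsets it was 2 of 18 with a median of -0.18. Of 21 genes of antigen presentation and complement 18 were lower with 3 at that p, and without CBD 1 all 21 were lower with 13 at that p. With the offsets 16 of 21 were lower with 0 at that p and a median of -0.12. Of 23 tested cytokine and inflammasome genes 15 were lower, and only Tgfb1 and Tgfb3 had such a p. Il1b and Tnf were at 0.433 CPM or less in the 6 libraries and were not tested.

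All 20 interferon-induced genes had a positive fold change, with a median of 0.88, and 4 had an unadjusted p under 0.05. The difference lay in CBD 1. The summed level was 183, 233 and 183 CPM in SNL and 633, 179 and 188 CPM in CBD, with sham at 382 to 524 CPM. Usp18, which restrains interferon signalling, was at 1.23, 1.95 and 1.33 CPM in SNL and at 14.2, 1.08 and 1.51 CPM in CBD, and without CBD 1 its log2 fold change went from 1.90 to -0.23. Without CBD 1 the median of the list was -0.19, with 14 of 20 genes lower.

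**Figure D5:**
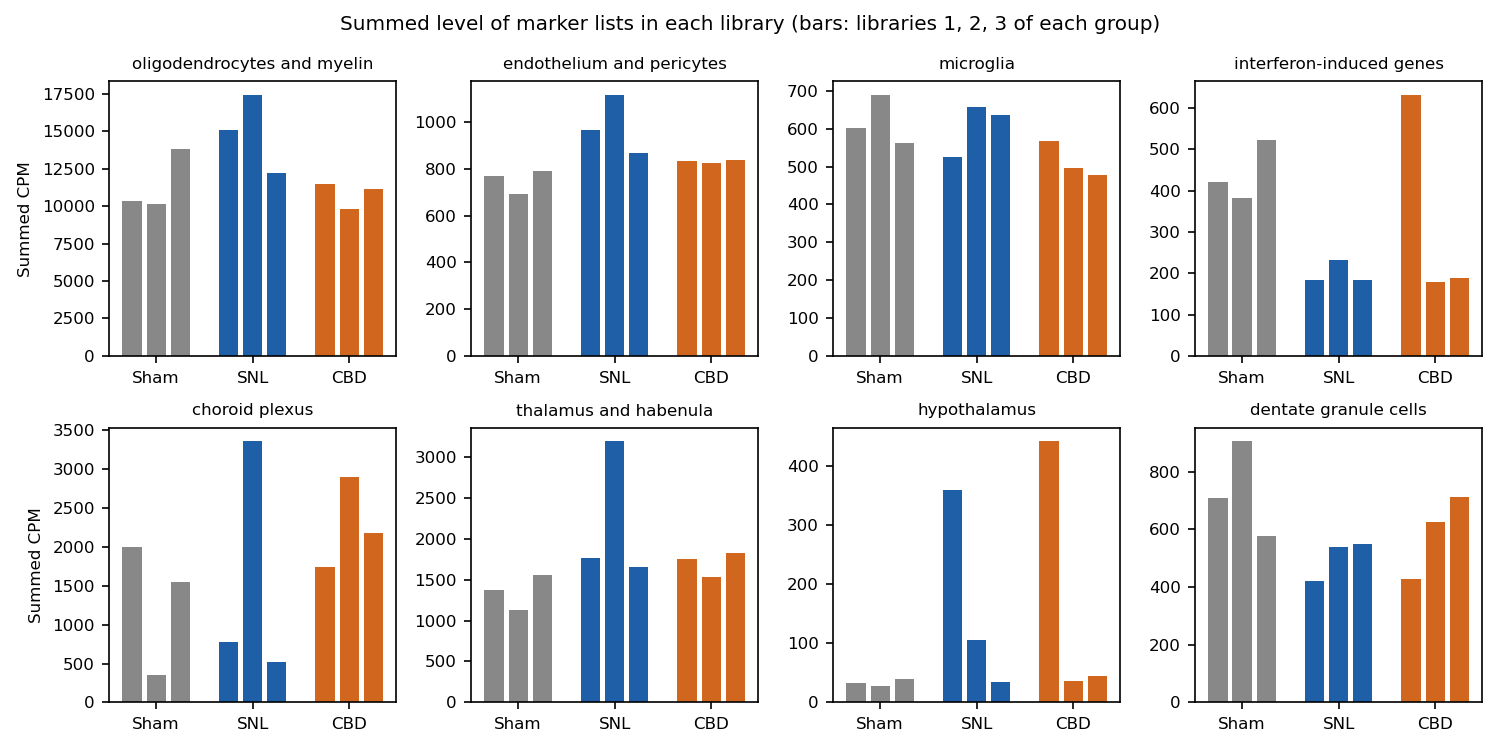
Bars give the summed CPM of the tested members of 8 marker lists in libraries 1, 2 and 3 of each group. The interferon list stands at 633 CPM in CBD 1 against 179 and 188 CPM in CBD 2 and CBD 3, and the choroid plexus, thalamus and hypothalamus lists vary widely between libraries of the same group.

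Summed markers of regions beside the hippocampus varied between libraries within groups, and their source was not tested. Choroid plexus markers summed to 781, 3363 and 522 CPM in SNL and 1748, 2905 and 2180 CPM in CBD, with 0 of 17 at an unadjusted p under 0.05. Ttr, the thyroxine carrier that the choroid plexus secretes, was at 354, 2018 and 233 CPM in SNL and at 1042, 1730 and 1109 CPM in CBD. Markers of thalamus and habenula summed to 3192 CPM in SNL 2 and to between 1536 and 1829 CPM in the other 5 libraries. Hypothalamic markers summed to 359 CPM in SNL 1, 105 CPM in SNL 2 and 442 CPM in CBD 1, against a highest sum of 44.3 CPM elsewhere. CBD 1 alone was high in vasopressin, with Avp at 80.5 CPM against 0.463 to 3.50 CPM in the other 5 libraries compared. Dentate granule cell markers were lowest in SNL 1 and CBD 1, at 421 and 427 CPM, and ran from 539 to 713 CPM in the other 4.

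Of 21 genes that glucocorticoid hormones induce, 6 were higher and 3 lower at an unadjusted p under 0.05. With the offsets the counts were 6 and 0, and without CBD 1 they were 3 and 4. Fkbp5, a co-chaperone that dampens the glucocorticoid receptor, was at 32.9, 32.7 and 41.0 CPM in SNL and at 44.3, 50.1 and 46.0 CPM in CBD, with sham above both at 59.1 to 90.8 CPM. On the log2 scale the difference was 0.40 ± 0.16. Hif3a, a negative regulator of the hypoxia response, was at 3.15, 2.997 and 2.87 CPM in SNL and at 8.34, 8.41 and 3.65 CPM in CBD, with sham at 8.82 to 12.3 CPM. Sgk1, a kinase that regulates ion channels, was at 41.6, 52.3 and 33.4 CPM in SNL and at 84.2, 49.1 and 56.0 CPM in CBD, where CBD 2 lay within SNL. Ddit4, Dusp1 and Mt1 were lower, and Ddit4, an inhibitor of the growth kinase mTOR, was at 45.3 to 55.7 CPM in SNL and 24.8 to 46.3 CPM in CBD, with sham at 63.4 to 79.97 CPM.

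In the endoplasmic reticulum stress list 13 of 20 genes were higher and 7 lower. At an unadjusted p under 0.05, 1 was higher and 3 were lower, and with the offsets these counts were 2 and 0. Ddit3, the transcription factor CHOP of that response, was at 22.996, 22.3 and 23.9 CPM in SNL and at 17.3, 18.9 and 17.7 CPM in CBD, with sham at 14.6 to 16.1 CPM and a log2 fold change of -0.36 ± 0.10. Atf4, which induces Ddit3, was at 111 to 140 CPM in SNL and 92.8 to 107 CPM in CBD. Sel1l, which helps to remove misfolded proteins, was higher at 0.33 ± 0.09. With the offsets Ddit3 had -0.25, Atf4 -0.11 and Sel1l 0.18. Of 20 immediate early genes, which neurons switch on with activity, 14 were lower, with a median of -0.22 and 3 at an unadjusted p under 0.05. Without CBD 1 the median was -0.08, with 3 genes higher and 3 lower at that p. With the offsets it was -0.06, with 0 higher and 1 lower at that p. Fos was at 12.1, 17.9 and 5.10 CPM in SNL and at 7.69, 3.97 and 4.81 CPM in CBD, so that SNL 3 lay within CBD, and without SNL 1, SNL 2 and CBD 1 its log2 fold change was -0.22 in place of -1.09. Arc, which trims synaptic receptors, was at 45.9 to 68.0 CPM in SNL and 30.9 to 51.0 CPM in CBD.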

How the data were processed

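Messenger RNA of hippocampal tissue was sequenced from TRIzol extracts with a SMARTER mRNA-seq kit, per the labels' protocols. The values deposited are expected counts of each gene, from RSEM on the build GRCm39 per the submitters' processing notes. Its version, the aligner, annotation, strand setting and read filters are not given in the sources at hand. RSEM shares out reads that fit several genes, so genes with copies are uncertain. The deposited expected counts were rounded. 0 sample columns went unused.

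Genes were kept by edgeR's filterByExpr. Groups were compared by the quasi-likelihood F test of edgeR (4.0.16, R 4.3.3) with 1 factor of 3 groups over 9 libraries, TMM scaling and Benjamini-Hochberg adjustment over 17967 genes, tested on simulated data first. Standard errors were taken as the log2 fold change over the root of its F statistic. Lists were described by counts and medians with no test. Transcript length, GC content and promoters came from GENCODE M21 and RefSeq, both on GRCm38, and 98.2% of tested genes had a length. The offsets are smooth fits on both features within each library.

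The groups compared, the 44 gene lists and the alternatives were chosen with earlier results of these data known. Genes named are the 12 of smallest p in each direction that average 1 CPM or more and have no clone or pseudogene symbol, the 8 of smallest DESeq2 adjusted p in each direction, up to 4 members of smallest p from each list, fixed anchors, and the members of both target lists. Others were named after their values were seen. A few genes that the rule names are not reported here.

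Alternatives were DESeq2 (1.42.0), limma voom (3.58.1) with sample weights, other scalings and filters, fits of 6 libraries only, the replicate number as a block, the offsets, and fits without single libraries or without the libraries whose Pmch exceeded 10 CPM. In the last of these SNL rests on a lone library that is assumed to vary like the other groups. Voom without weights was added after seeing the data.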

Additional observations from a re-analysis of the deposited data

How the results depend on the processing

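Against 0 genes at an adjusted p under 0.05 in edgeR, the DESeq2 test called 156, voom with sample weights 1132 and voom without weights 0. The weights, from 0.45 for CBD 1 to 4.27 for CBD 2, differ between the libraries of the CBD group. Without a filter on low counts edgeR called 1 gene, without the libraries that held Pmch 2, and with single libraries left out 0 to 2, the 2 being called without CBD 1. The replicate number as a block also gave 0, with 878 genes higher and 949 lower at an unadjusted p under 0.05. Same-numbered CBD and SNL libraries deviated with correlations of 0.19, -0.09 and 0.13, so the numbers were not taken to pair the samples.

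The 1168 higher and 1294 lower genes at an unadjusted p under 0.05 became 492 and 787 with offsets for GC content and length, and 2377 and 2613 in voom with sample weights. With single libraries left out they ran from 590 to 1665 and from 550 to 2012, the lowest without CBD 3 (590 and 550), followed by CBD 2 (778 and 641), and the highest without CBD 1.

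With the offsets the medians were -0.23 for cytosolic ribosomal proteins, -0.24 for complex I, -0.24 for ATP synthase, 0.04 for adhesion molecules and 0.05 for chromatin modifiers. Without the libraries that held Pmch, the medians were -0.73 for cytosolic ribosomal proteins, -0.73 for complex I, -0.68 for complex IV, -0.58 for ATP synthase, -0.17 for myelin and -0.07 for endothelium. With single libraries left out, the adhesion median ran from 0.18 to 0.24 and the interferon median from -0.19 to 1.34. Beside the interferon list, among named genes with an unadjusted p under 0.05 in the full comparison the sign turned for Usp18, at -0.04 without the libraries that held Pmch and from -0.23 to 2.39 with single libraries left out, and for Avp, at -0.87 and from -2.04 to 4.39 under the same changes and at -1.30 in voom with sample weights. Named genes at or above that p changed sign in 90 of their values, Faah, Gpr55, Pparg, Adora2a and Dagla among them, and the median of the proposed targets outside the cannabinoid receptors went from 0.10 to -0.02 without CBD 1. Causes of these moves were not tested. With 3 libraries a group, differences near those of the lists are hard to call for single genes.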

Other observations

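CBD 2 and CBD 3 stood apart from the other 7 libraries in a few genes, which were picked out after their values were seen. Pcsk1n, the precursor of an inhibitor of prohormone convertase and of neuropeptides, was at 172.8 and 158.9 CPM in CBD 2 and CBD 3, at 355.7 CPM in CBD 1, and between 322.4 and 394.3 CPM in the SNL and sham libraries. It was 1 of the 2 genes that edgeR called without CBD 1. The other, Pgam1-ps2, a pseudogene that can share reads with its parent gene Pgam1, had 0 counts in CBD 2 and CBD 3 and between 10.2 and 37.2 CPM in the other 7 libraries. Gm49450, an unnamed gene model, was at 6.71 and 7.30 CPM in CBD 2 and CBD 3 and between 29.3 and 116.7 CPM elsewhere. Gm49721, also an unnamed model, had 0 counts in all 3 CBD libraries and between 0.584 and 3.21 CPM in the other 6, and it was the gene called without a filter on low counts.

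The oxidoreductase Nnt has 2 entries in the table with the same symbol. The former was at 9.46, 19.4 and 1.17 CPM in SNL 1 to 3 and at 17.6, 6.71 and 16.6 CPM in CBD 1 to 3, and the latter at 9.80, 0 and 17.7 CPM in SNL and at 0, 13.2 and 4.23 CPM in CBD. Where either is low the other is high, in both groups.

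Leaving out CBD 1 also brought out markers of dentate granule cells and CA1 neurons, but not of CA3 neurons or interneurons. Of 14 dentate granule cell markers 13 were then higher in CBD, with a median log2 fold change of 0.44 and 5 at an unadjusted p under 0.05, where the full comparison had 0. Of 10 CA1 markers 9 were higher, with a median of 0.36 and 4 at that p. Of 12 markers of CA3 neurons and mossy cells 5 were higher and 7 lower, with a median of -0.04. Of 15 interneuron markers 5 were higher and 10 lower, with a median of -0.09. SNL 1, which had the lowest dentate sum among the SNL libraries, remained in that fit. Without SNL 1, SNL 2 and CBD 1, 10 of 14 dentate markers were higher, with 2 higher and 1 lower at that p and a median of 0.30, and 6 of 10 CA1 markers were higher with a median of 0.19. With the offsets both lists had 0 at that p, with medians of 0.22 and 0.29. Choroid plexus markers had a median of 2.30 without SNL 1, SNL 2 and CBD 1, where SNL rests on SNL 3, the library of the lowest sum among the 6.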
